A study of Rattus norvegicus with 4 samples.

Results

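Aldehyde dehydrogenases were measured by 7 features of a spotted rat cDNA array, of 1432 features with a single gene symbol. Another 19 features carried several symbols and 485 none. Shares, ranks and medians given below for all features include these as well. Among the features with no symbol, runs of neighbouring features with near-equal ratios recur over the array, and what these spots hold was not checked. The shares were not counted over the features with a single symbol alone, so they are not a background of named genes. The members were taken by name, as every feature whose single gene symbol starts with Aldh and a digit, and the rule itself uses no measured value. They stand for 4 genes: 3 features for Aldh2, 2 for Aldh3a2, and 1 each for Aldh9a1 and Aldh1a1. RefSeq lists 24 rat genes of this naming pattern, 3 of them pseudogenes, so most of the family was not analysed here.

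The ANIT livers came from male Sprague-Dawley rats given a single intraperitoneal injection of α-naphthylisothiocyanate (ANIT) at 75 mg/kg, from a solution of 7.5 mg/mL in olive oil. The control livers came from rats given the same volume of olive oil alone, and all animals weighed 250 to 300 g, with no age stated. Livers were taken after 24 h, and the labels say that RNA within each condition, from groups of 3 rats, was mixed. This left 1 pool of poly(A) RNA for ANIT and 1 for olive oil, so the spread between animals is unknown and no test of the treatment was possible. Both pools are taken to be on all 4 arrays, which is a reading of the labels, and the dyes were exchanged: ANIT carried Cy5 on arrays 1 and 3, and Cy3 on the other two (arrays 2 and 4).

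ANIT reaches bile as a conjugate and injures the lining of the bile ducts, and it serves as a rodent model of cholestasis. Aldehyde dehydrogenases oxidise aldehydes to acids with NAD+ or NADP+ as the acceptor, and the liver carries them in the cytosol, mitochondria and endoplasmic reticulum. Their substrates include acetaldehyde from ethanol, aldehydes from lipid peroxidation, retinal, fatty aldehydes and the aldehydes left by amine breakdown.

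All values are deposited log ratios, read as log2 of the ANIT pool over the olive oil pool. Neither the log base nor the direction is stated in the sources used here. The direction follows the order of the channels in the labels, and the opposite direction would turn every sign below. Errors are SDs over the 4 hybridisations of the same pools (n = 4), so they hold technical error and any effect of the dye. A feature counted as lower or higher when its mean was at least 1 in size, a 2-fold difference, with the same sign on all 4 arrays. In whole liver, fewer cells of a type and less RNA per cell cannot be told apart.

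The arrays carried a dye effect that bears on every value here. The median over all features was -0.68 and -0.64 on arrays 1 and 3, where ANIT carried Cy5, and 0.31 and 0.35 on arrays 2 and 4, where it carried Cy3. Values were used as deposited, and the same values with each array centred on its own median are given beside them where they change the picture. Hepatocyte markers (Serpina1, Ttr, Apob, Tf and Apoa1 of 8 listed) had feature means between -0.49 and 0.07, and the array gives only ratios, so no level could be checked.

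None of the 7 Aldh features was lower or higher by the 2-fold rule. Over all features 3.05% were lower and 0.775% were higher. The lowest member, Aldh9a1, had a mean of -0.97 (1.96-fold), close to the limit, and lay below 0 on all 4 arrays. The 3 Aldh2 features had means from -0.64 to -0.55 (1.56-fold to 1.47-fold) and also lay below 0 on all 4 arrays as deposited, but not with centred arrays. Centring widened the SDs of these Aldh2 features, from 0.14 to 0.23 as deposited to 0.70 to 0.76. Both Aldh3a2 features and the Aldh1a1 feature had opposite signs in the dye orientations. At 1.5-fold, with the same rule on signs, 3 of the 7 features were lower (Aldh9a1 and 2 of the 3 for Aldh2), against 6.92% of all features.

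RefSeq promoters (assembly GRCr8) were at hand for 3 of the 4 genes, and Aldh2 had no entry. They are shown as a description only, and no link to the ratios was tested. Of the 3 genes, Aldh9a1 was below 0 on all 4 arrays. The signs of Aldh3a2 and Aldh1a1 turned with the dye, as they did for 53.8% of all features. Each sequence is the 250 bases before the annotated start, 5′ to 3′ on the gene's strand. Capitals mark matches, on either strand, to CCAAT (reverse ATTGG, the box bound by NF-Y) and GCGTG (reverse CACGC, the core that the aryl hydrocarbon receptor binds). No match overlapped another.
Aldh9a1 (chr13:82038429-82038678, + strand): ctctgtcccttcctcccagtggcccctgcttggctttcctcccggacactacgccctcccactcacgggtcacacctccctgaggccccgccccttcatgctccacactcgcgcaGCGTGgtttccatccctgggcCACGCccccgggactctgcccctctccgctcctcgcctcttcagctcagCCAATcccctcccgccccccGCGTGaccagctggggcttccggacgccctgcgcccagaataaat
Aldh3a2 (chr10:46448336-46448585, - strand): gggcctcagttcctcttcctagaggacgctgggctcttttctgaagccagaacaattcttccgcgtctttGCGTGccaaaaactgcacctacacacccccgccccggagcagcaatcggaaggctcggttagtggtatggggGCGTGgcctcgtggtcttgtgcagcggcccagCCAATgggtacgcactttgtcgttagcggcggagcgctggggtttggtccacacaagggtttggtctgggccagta
Aldh1a1 (chr1:227537370-227537619, + strand): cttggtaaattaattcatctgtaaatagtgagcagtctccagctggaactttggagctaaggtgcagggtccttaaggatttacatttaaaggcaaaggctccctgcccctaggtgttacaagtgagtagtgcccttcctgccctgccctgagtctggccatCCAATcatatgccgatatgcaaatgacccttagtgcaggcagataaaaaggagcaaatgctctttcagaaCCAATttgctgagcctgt

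The Aldh9a1 window held 3 matches to GCGTG, at 135, 114 and 45 bases before the start, and 1 CCAAT at 65. The Aldh3a2 window held 2 matches to GCGTG, at 180 and 108 bases, and 1 CCAAT at 76. The Aldh1a1 window held no GCGTG and 2 matches to CCAAT, at 88 and 18 bases, where each distance runs from the first base of the match. GC content was 68.4% for Aldh9a1, 60.0% for Aldh3a2 and 46.4% for Aldh1a1. Among 33469 rat promoter windows of this length, 34.0% held CCAAT and 25.9% held GCGTG on either strand. TATAAA was in none of the 3 windows and in 12.9% of all windows. These matches describe letters in the windows, and nothing about binding was measured.

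Aldh9a1 encodes the cytosolic enzyme that oxidises 4-trimethylaminobutyraldehyde in carnitine synthesis, and it also takes aminoaldehydes from polyamine and amine breakdown. Its single feature (feature 24) had log2 ratios of -1.07, -0.90, -0.74 and -1.18 on arrays 1 to 4. All 4 arrays were below 0, and the arrays of both dye orientations overlapped. The mean was -0.97 ± 0.19, with -0.91 over the arrays with ANIT in Cy5 and -1.04 over those with ANIT in Cy3. Only 60 features of the whole array had a lower mean. The call turned on single arrays: without array 2 the mean was -1.05 and without array 3 -1.06, both past 2-fold, with the orientations weighted equally. With each array centred on its median, the 4 values were -0.40, -1.21, -0.10 and -1.53, still all below 0, with a mean of -0.81 ± 0.67.

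Aldh2 encodes the mitochondrial enzyme that clears most acetaldehyde formed from ethanol and also oxidises 4-hydroxynonenal, a product of lipid peroxidation. Feature 665 had log2 ratios of -0.56, -0.78, -0.48 and -0.73 on arrays 1 to 4, with a mean of -0.64 ± 0.14. Feature 1759 had -0.26, -0.70, -0.61 and -0.78, with a mean of -0.59 ± 0.23. Feature 1293 had -0.33, -0.68, -0.47 and -0.73, with a mean of -0.55 ± 0.19. All 12 values of the 3 features were below 0, and on each feature both arrays with ANIT in Cy5 were nearer to 0 than both arrays with ANIT in Cy3.

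Averaged over its features, Aldh2 stood at -0.59 ± 0.17, or 1.51-fold, which did not pass the rule. The sign on single arrays depended on the scale used. With each array centred on its median, the Aldh2 values lay between 0.03 and 0.41 where ANIT carried Cy5 and between -1.13 and -0.99 with ANIT in Cy3. The mean of each feature stayed below 0 when centred, from -0.47 ± 0.70 for feature 665 to -0.39 ± 0.75 for feature 1293. These SDs were larger than those of the deposited values. The orientations differed little in the deposited values (0.23 to 0.30, ANIT in Cy5 minus ANIT in Cy3), while the median feature of the array differed by -0.79.

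**Figure D1:**
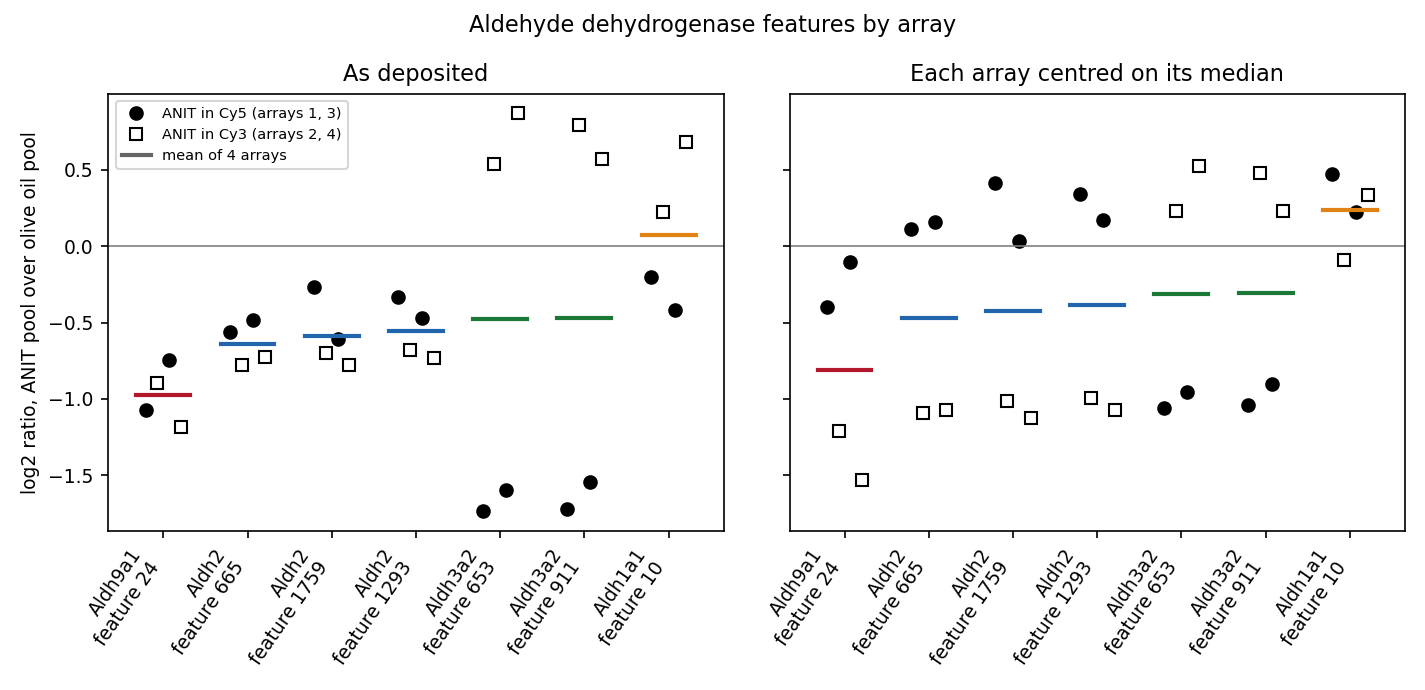
Log2 ratio of the ANIT pool over the olive oil pool (vertical axis) for the 7 Aldh features, on each of the 4 arrays, as deposited (left) and with each array centred on its median (right). Filled circles are arrays with ANIT in Cy5, open squares arrays with ANIT in Cy3, and coloured lines the mean of the 4 arrays. As deposited, Aldh9a1 and the 3 Aldh2 features lie below 0 on all 4 arrays, and centred only Aldh9a1 does.

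Aldh3a2 encodes the fatty aldehyde dehydrogenase of the endoplasmic reticulum and peroxisomes, which oxidises long-chain aldehydes and whose loss in people causes Sjögren-Larsson syndrome. Feature 653 had log2 ratios of -1.73, 0.54, -1.59 and 0.87 on arrays 1 to 4, and feature 911 had -1.72, 0.79, -1.54 and 0.57. On both features the arrays with ANIT in Cy5 were far below 0 and those with the dyes exchanged above it. The means of -0.48 ± 1.38 and -0.47 ± 1.34 were smaller than their SDs. The orientation means were -1.66 (ANIT in Cy5) and 0.70 (ANIT labelled with Cy3) for feature 653, and -1.63 and 0.68 in the same order for feature 911. Centring reduced but did not remove this, with -1.06 to -0.90 over both features with ANIT in Cy5 and 0.23 to 0.52 with ANIT in Cy3. No direction for Aldh3a2 is given for this reason.

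Aldh1a1 encodes the cytosolic enzyme that oxidises retinal to retinoic acid and is abundant in liver. Its feature (feature 10) had log2 ratios of -0.20, 0.22, -0.42 and 0.68 on arrays 1 to 4. Again the arrays with ANIT in Cy5 were below 0 and those with ANIT in Cy3 above. The mean was 0.07 ± 0.49, within the spread of the arrays, with -0.31 for ANIT in Cy5 and 0.45 for ANIT in Cy3. Centred on the array medians, the values were 0.47, -0.09, 0.23 and 0.34, with a mean of 0.24 ± 0.24. Of all features, 1588 had a lower mean than Aldh1a1, so that it lay above the median of all features and the other members below it.

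The pattern of Aldh3a2 and Aldh1a1, below 0 on both arrays where ANIT carried Cy5 and above 0 on both where it carried Cy3, was found for 3 of the 7 Aldh features and for 53.8% of all features. Values below 0 on all 4 arrays were found for the other 4 members and for 17.6% of all features. Arrays 1 and 3 differed by at most 0.34 on any member (median 0.18, against 0.14 over all features). Arrays 2 and 4 differed by at most 0.46, on Aldh1a1 (median 0.22, against 0.11 over all features). Spot intensities were not at hand, and their part in the split between the genes was not tested.

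**Figure D2:**
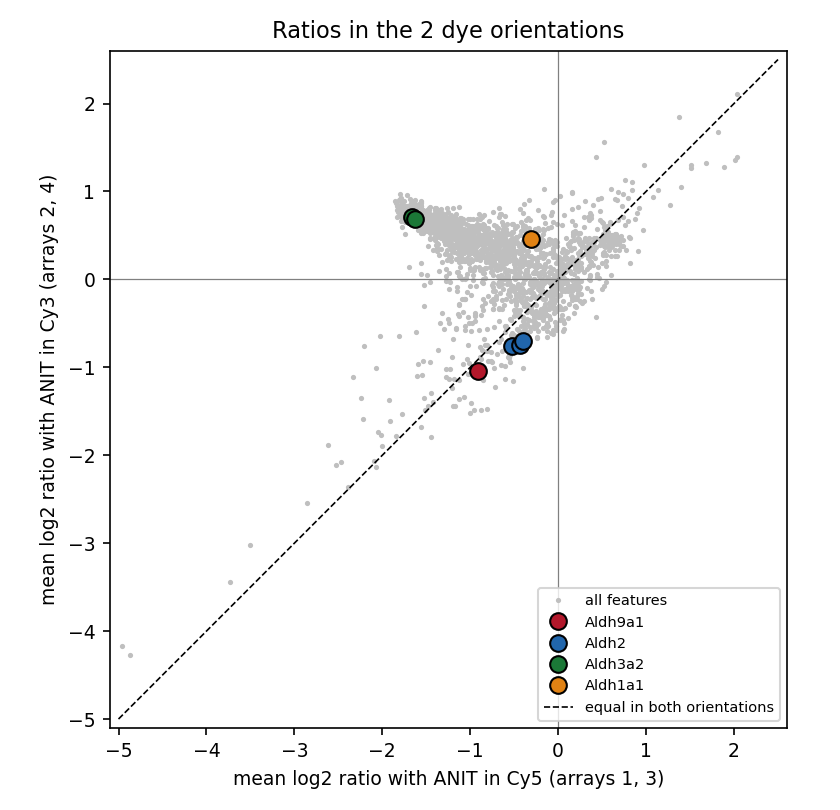
Mean log2 ratio of the arrays with ANIT in Cy5 (horizontal axis) against that of the arrays with ANIT in Cy3 (vertical axis), for all features in grey and the Aldh features in colour, with a dashed line of equal values. Aldh9a1 and Aldh2 lie near the line below 0, the Aldh3a2 features at about -1.6 and 0.7 in the upper left, and Aldh1a1 at -0.31 and 0.45.

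Features of one gene gave closely similar ratios. Between the means of the 3 Aldh2 features, differences were 0.09 (features 665 and 1293), 0.05 (665 and 1759) and 0.04 (1293 and 1759) in size. The largest difference between Aldh2 features on any one array was 0.30, on array 1. The Aldh3a2 features differed by 0.0067 in the mean, and by at most 0.30 on one array. Over all 699 pairs of features that share a gene, from 340 genes, the median difference of means was 0.17 and the median of the largest difference on one array was 0.61. The Aldh3a2 pair matched in its dye pattern as well as in its mean. The gap between orientations differed by 0.06 between the features, against a median of 0.49 over all pairs. For the Aldh2 pairs this gap differed by 0.08 (665 and 1293), 0.08 (665 and 1759) and 0.0003 (1293 and 1759). The pattern of signs of Aldh3a2 was found for 53.8% of all features, so the match of the Aldh3a2 pair is not particular to its gene. Pairs on one array share its hybridisation, and whether paralogous transcripts bind to these cDNAs was not tested.

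**Figure D3:**
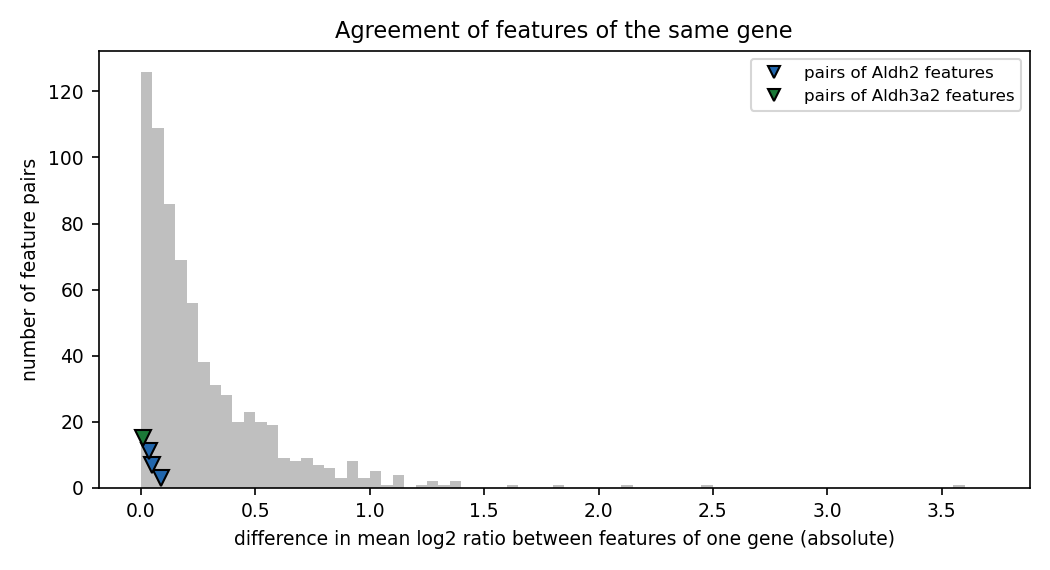
Histogram of the absolute difference in mean log2 ratio between 2 features of one gene (horizontal axis) over 699 pairs, with the number of pairs on the vertical axis. Triangles mark the 3 Aldh2 pairs (0.04 to 0.09) and the Aldh3a2 pair (0.0067), their height carries no value, and all lie below the median of 0.17.

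By gene mean, the order from low to high was Aldh9a1 (-0.97), Aldh2 (-0.59), Aldh3a2 (-0.48) and Aldh1a1 (0.07). Taken within arrays, Aldh9a1 minus Aldh2 was -0.69, -0.18, -0.22 and -0.44 on arrays 1 to 4, so Aldh9a1 was the lower on all 4, with a mean of -0.38 ± 0.23. Aldh2 minus Aldh1a1 was -0.19, -0.94, -0.10 and -1.43, also below 0 on all 4 arrays, but far larger with ANIT in Cy3 than with ANIT in Cy5. The place of Aldh3a2 was not fixed. Aldh2 minus Aldh3a2 was 1.34 and 1.05 on arrays 1 and 3 and -1.39 and -1.47 on arrays 2 and 4, and its mean of -0.12 ± 1.52 was well within the spread. These within-array differences are the same with and without centring.

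Taken as a family, the 7 features had a median of -0.55, against -0.25 over all features. Of their 28 array values, 22 were below 0. On arrays 1 and 3 all 7 members were below 0, where the medians of all features were -0.68 and -0.64. On arrays 2 and 4, with medians of 0.31 and 0.35, 4 members each were below 0. The share below 0 over all array values was not counted, and the part of the dye effect in the 22 was not tested. Centring raised every feature mean by 0.17, which left the family median at -0.39 and that of all features at -0.09, and 15 of the 28 centred values were below 0. Since 3 of the 7 features measure Aldh2, the median leans on that gene. The mean of features per gene gave a median of -0.53 over the 4 genes.

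No member passed the 2-fold rule, so the rule for naming genes of similar pattern gave none, and the genes here were looked up after the Aldh values were seen. Likeness was the Euclidean distance over the log2 ratios of the 4 arrays, among features of other genes. Nearest to Aldh9a1 were Ogg1, a DNA glycosylase that removes oxidised guanine (distance 0.17, mean -1.005 ± 0.26), Slco2b1, an organic anion carrier (0.31, mean -0.89 ± 0.09), and Cyp4f1, a fatty acid hydroxylase (0.31, mean -0.87 ± 0.18). Nearest to Aldh2 feature 665 were Cyp4f6 and Cyp2d4, both cytochromes P450, and Gsto1, a glutathione transferase, all at a distance of 0.19 to 0.20. Their means were -0.61 ± 0.16, -0.73 ± 0.18 and -0.59 ± 0.06. The nearest to the other Aldh2 features included Rapsn, an anchoring protein of the muscle synapse, at 0.10 from feature 1293 and 0.15 from feature 1759. The features nearest to Aldh3a2 shared its dye pattern, for example Pcna, the sliding clamp of DNA replication, at 0.11 from feature 653.

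Other genes were taken from lists of related pathways, and not all of them make or remove the substrates of Aldh enzymes. Beside Aldh, alcohol and aldehyde metabolism held 3 measured genes on 9 features, with a median of -0.29. By the 2-fold rule 2 of the 9 features were lower and none higher, against 3.05% and 0.775% of all features. Both lower ones were features of Cyp2e1, the P450 that oxidises ethanol to acetaldehyde. Feature 1234 had -1.08, -1.35, -1.18 and -1.36 on arrays 1 to 4 (mean -1.24 ± 0.14) and feature 1639 had -0.92, -0.94, -1.12 and -1.22 (mean -1.05 ± 0.14). All arrays were below 0 on both, whereas the other 5 Cyp2e1 features had means between -0.46 and -0.10. Without array 3 or without array 4, and with centred arrays, 1 feature of the list was lower. Adh1c, an alcohol dehydrogenase that makes acetaldehyde, had 0.14, 0.28, 0.04 and 0.37 (mean 0.21 ± 0.15), and Akr1a1, an aldehyde reductase, had a mean of -0.29 ± 0.77.

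On the list for amine, GABA, proline and branched-chain amino acid breakdown, 3 genes were measured on 4 features. Of these features 1 was lower and 0 were higher, against 3.05% and 0.775% of all features. Their median was -0.39. The lower one was Maob, the mitochondrial monoamine oxidase, whose aldehyde products are substrates of aldehyde dehydrogenases. It had -1.501, -1.29, -1.71 and -0.90 on arrays 1 to 4, all below 0, with a mean of -1.35 ± 0.35, or 2.55-fold lower. Gad1, which makes GABA, had means of -0.47 ± 1.25 and 0.06 ± 1.00 on its 2 features, and neither passed the rule. Aoc1, an amine oxidase measured by features 1621 and 1645, was not on this list.

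The retinoid list, around the substrates and receptors of the Aldh1a products, held 5 measured genes on 10 features. The measured genes were receptors and a binding protein, with no enzyme. None passed the rule, and the list had a median of -0.29. Its lowest feature was that of Rxra, the retinoid X receptor, with -0.72, -0.62, -0.89 and -0.51 on arrays 1 to 4 and a mean of -0.69 ± 0.16. A second Rxra feature had a mean of -0.34 ± 0.25. Rara, a retinoic acid receptor, ran from -0.47 ± 1.09 to -0.12 ± 0.05 over its 3 features. Folate and one-carbon metabolism, where Aldh1l1 acts, held 3 measured genes on 4 features, none past the rule (median -0.43). All 4 of these features had opposite signs in the dye orientations, with values above 0 only where ANIT carried Cy3. The same pattern of signs was found for 53.8% of all features, so it is not particular to this list. Among the 4 were Folr1, a folate receptor measured by features 735 (mean -0.48 ± 1.07) and 1846, and Ggh, which trims folate polyglutamates (-0.39 ± 1.07).

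The aryl hydrocarbon receptor battery, to which Aldh3a1 belongs in rodents, held 4 measured genes on 5 features. Of these 2 were higher and none lower, against 0.775% and 3.05% of all features, and the median of the list was 0.48. Both higher features were of Cyp1a2, with means of 1.41 ± 0.13 and 1.505 ± 0.24 and all arrays between 1.29 and 1.84. Nqo1, a quinone reductase, had 0.21, 0.78, 0.10 and 0.82 on arrays 1 to 4, all above 0, and did not pass (0.48 ± 0.38). Gsta2, a glutathione transferase, had -0.38, -0.62, -0.41 and -0.39, all below 0, and did not pass either (-0.45 ± 0.11). The receptor Ahr itself had a mean of -0.27 ± 0.96. Among the PPAR alpha targets listed, 6 genes on 11 features, none passed the rule and the median was -0.19. That list did not hold Acsl1, an acyl-CoA synthetase, whose features 433 and 1177 had means of -2.25 and -2.70. Features with several symbols were left out as well, such as those of Cyp4a1 (mean 0.45) and of Cyp4a2 with Cyp4a3 (mean 0.62). The list median therefore does not stand for all such targets on the array. Cpt1a, which admits fatty acids to mitochondria, had means of -0.51 ± 1.47 and -0.50 ± 0.28. Hadhb, a subunit of the mitochondrial trifunctional protein, pointed the other way on one feature, with 0.34, 0.46, 0.14 and 0.59 on arrays 1 to 4 (mean 0.38 ± 0.19), and had a mean of -0.26 ± 0.80 on its other feature.

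**Figure D4:**
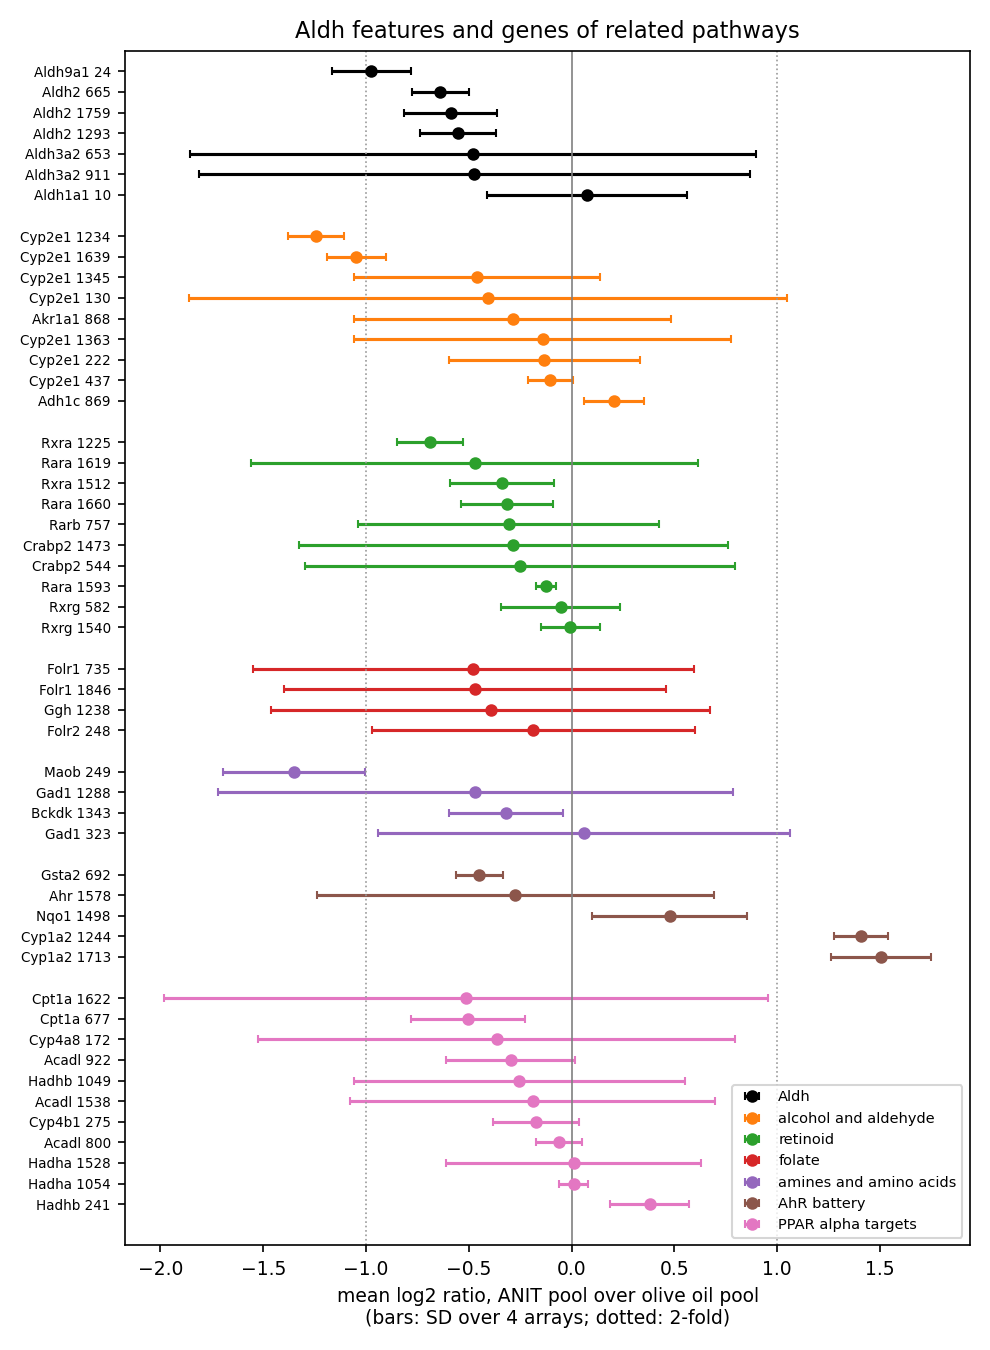
Mean log2 ratio of the ANIT pool over the olive oil pool (horizontal axis) for each feature of the Aldh family and of 6 related lists, named by gene and feature number, with bars for the SD over 4 arrays and dotted lines at 2-fold. The 2 Cyp1a2 features lie past the upper line, and Maob and 2 of the Cyp2e1 features past the lower one. Aldh9a1 stops just short of it at -0.97.

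Of the housekeeping controls, Actb had a mean of -0.17 ± 0.21 and the Hprt1 features -0.20 ± 0.81 and -0.10 ± 0.12. Markers of cells other than hepatocytes were few and none passed the rule. Spp1 and Ggt1 of bile duct cells had a median of -0.34, and Kdr and Tek of endothelium -0.33. Col1a1 and Vim of stellate cells and fibroblasts had a median of -0.44 over 3 features but went opposite ways. The Col1a1 features had means of -0.45 ± 1.09 and -0.44 ± 0.36, and Vim lay above 0 on all 4 arrays (0.13 ± 0.07). S100a9 of neutrophils had a median of -0.13 over 2 features, with means of -0.37 ± 1.36 and 0.11 ± 0.53. No macrophage marker on the list had a feature. For the bile duct markers the orientation medians were -1.32 where ANIT carried Cy5 and 0.63 where it carried Cy3. The part of these cell types in the Aldh ratios was not tested.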

How the data were processed

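Per the labels, pooled liver poly(A) RNA was reverse transcribed with Cy3-dUTP or Cy5-dUTP, and the ANIT and olive oil pools were hybridised together. The authors deposited 1 log ratio per feature and array, read here as log2. Background correction, normalization, log base and direction: not given in the sources used here. The 4 arrays were counted as technical repeats of 1 pool per condition, and their number limits the precision.

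Features were named through the platform annotation: 1432 carried 1 symbol, 19 several and 485 none. All 4 Aldh symbols matched RefSeq (GRCr8) by gene ID. Means, SDs, orientation means, feature pairs and lists were computed in Python 3.11.15 with pandas 2.3.3 and numpy 2.4.6, and figures drawn with matplotlib 3.10.9. The 2-fold rule was tested on simulated data, with a dye offset smaller than that of these arrays.

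The family was proposed and the lists were chosen with earlier results of these data known, although the rule for its members uses names alone. Named genes were all Aldh features, list members past the 2-fold rule, up to 2 with the largest mean in size per list (each gene by its feature with the largest mean), and the housekeeping genes. Vim, Kdr, Tek, Spp1, Ggt1, Col1a1, S100a9 and the hepatocyte markers are named as cell type markers. Adh1c, Gsta2, Ahr, Acsl1, Cyp4a1, Cyp4a2, Cyp4a3 and the genes nearest in pattern were named after their values were seen. Aoc1 is named only as missing from its list. Alternatives were other size limits, no sign rule, centring, single orientations, leaving out each array while weighting both orientations equally, natural logarithms, the opposite sign and gene means.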

Additional observations from a re-analysis of the deposited data

How the results depend on the processing

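The number of Aldh features lower by the rule was 0, and it was 3 at 1.5-fold (Aldh9a1 and Aldh2 features 665 and 1759), 2 with ANIT in Cy5 alone (both Aldh3a2 features, -1.66 and -1.63, where 34.5% of all features were lower), 1 with ANIT in Cy3 alone (Aldh9a1, -1.04, where 2.84% were) and 1 with natural logarithms (Aldh9a1, -1.41 as log2). With each array left out it was 0 to 1, and 1 without array 2 or array 3. It stayed 0 at 3-fold, with no sign rule, with centred arrays, with gene means and with the opposite sign. The number higher was 0 in each of these. The family median of -0.55 was -0.39 with centred arrays, -0.70 with ANIT in Cy3 alone, -0.80 with natural logarithms and 0.55 as olive oil over ANIT. Alone, the orientations gave opposite signs for Aldh3a2 (features 653 and 911 at 0.70 and 0.68 with ANIT in Cy3) and Aldh1a1 (-0.31 with ANIT in Cy5, 0.45 with ANIT in Cy3). Over all features, 59 were lower and 15 higher. These counts were 134 and 48 at 1.5-fold, 23 and 5 at 3-fold, 113 and 33 with natural logarithms, and 15 and 59 as olive oil over ANIT, and 667 were lower with ANIT in Cy5 alone, against 55 with ANIT in Cy3 alone. Where the size limit, base or sign was changed, the construction of the alternative gives the shift; otherwise the cause was not tested. No paired analysis was possible because each condition was 1 pool, and all 4 arrays carry both. Signal over background was not at hand.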
